A study of Mus musculus with 16 samples.

Results

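The chemokine Cxcl12 and its receptor Cxcr4 were followed through every library of cultured mouse cardiomyocytes. The members were the rows of the gene table named Cxcl12 or Cxcr4, 2 of 11631 genes, and the rows of their transcripts in the transcript table, 5 of 23055. Cardiomyocytes were isolated from adult C57BL/6 mice, cultured, and kept for 24 h with linagliptin, an inhibitor of dipeptidyl peptidase-4 (DPP-4), at 9 nmol/L or with 0.1% DMSO as vehicle. DM-HFD mice had been fed a high fat diet for 26 weeks and given streptozotocin, which destroys pancreatic beta cells, after 12 weeks of the diet. Control mice were about 8 weeks old and had neither. DM-HFD cells gave 3 libraries with linagliptin and 3 with vehicle, and control cells gave 5 libraries with linagliptin and 5 with vehicle, 16 in all. Diet, streptozotocin and age differed together between the mice and cannot be told apart, and neither the labels nor the methods say whether cells of both kinds were prepared together. The labels do not say which libraries came from separate mice, so p-values measure the spread between these samples, which may be technical.

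CXCL12, also called stromal cell-derived factor 1, is a secreted chemokine made by stromal, perivascular and endothelial cells that retains and recruits cells carrying CXCR4. CXCR4 signals through inhibitory G proteins to phosphoinositide 3-kinase, Akt and calcium, whereas ACKR3 binds the same ligand and clears it. DPP-4 removes the N-terminal dipeptide lysine-proline from the secreted chemokine, which then no longer activates CXCR4, so CXCL12 is one of the peptides that DPP-4 inhibitors preserve. A transcript level measures none of these steps in the protein.

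Cxcl12 (ENSMUSG00000061353.11) lies on the plus strand of chromosome 6 of GRCm38 from 117168535 to 117181367, and Cxcr4 (ENSMUSG00000045382.6) on the minus strand of chromosome 1 from 128588199 to 128592293. The coding start of Cxcl12 is shown because it holds the DPP-4 site: the capitals mark codons 22 and 23, the only lysine-proline pair in frame, at the start of the mature chemokine. It comes from exons 1 and 2, between chr6:117168656-117171507, and belongs to all 3 coding transcripts. Sequences were read from the GENCODE M21 transcripts on GRCm38.
Cxcl12 coding start: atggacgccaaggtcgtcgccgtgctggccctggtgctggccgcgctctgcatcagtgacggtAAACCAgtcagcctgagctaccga

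The 3 coding transcripts of Cxcl12 share the coding sequence up to a point in exon 3, and their ends are shown because they tell which form of the chemokine each transcript value stands for. Cxcl12-202 has 89 codons, the length of the alpha isoform, Cxcl12-203 has 93, the length of beta, and Cxcl12-201 has 119, the length of gamma. They begin in exon 3 at chr6:117173549-117173582, where Cxcl12-202 reads on into its own end, whereas Cxcl12-203 continues in an exon that codes up to base 117178598 and Cxcl12-201 in one that codes up to base 117176179. Capitals mark the coding bases after the shared part, stop codon included.
Cxcl12-202 coding end: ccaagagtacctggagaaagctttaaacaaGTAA
Cxcl12-203 coding end: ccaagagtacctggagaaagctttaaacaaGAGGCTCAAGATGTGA
Cxcl12-201 coding end: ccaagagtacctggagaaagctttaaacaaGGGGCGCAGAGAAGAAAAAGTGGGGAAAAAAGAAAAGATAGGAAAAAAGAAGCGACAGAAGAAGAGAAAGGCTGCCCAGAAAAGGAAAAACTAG
From the codon at the junction on, 18 of 31 codons of Cxcl12-201 encode lysine or arginine, against 3 of 5 in Cxcl12-203. This basic tail of the gamma isoform is known for tight binding to heparan sulphate, and gamma was described in adult rodent heart and nervous tissue.

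Cxcr4 has 2 coding transcripts that differ in the splice donor of exon 1. Capitals mark the 6 bases of Cxcr4-201 that Cxcr4-202 lacks, between chr1:128589878-128592209. The annotated coding sequence of Cxcr4-202 has no stop codon.
Cxcr4-201 coding start: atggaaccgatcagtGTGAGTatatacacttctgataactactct
Cxcr4-202 coding start: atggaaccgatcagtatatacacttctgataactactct

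**Figure D1:**
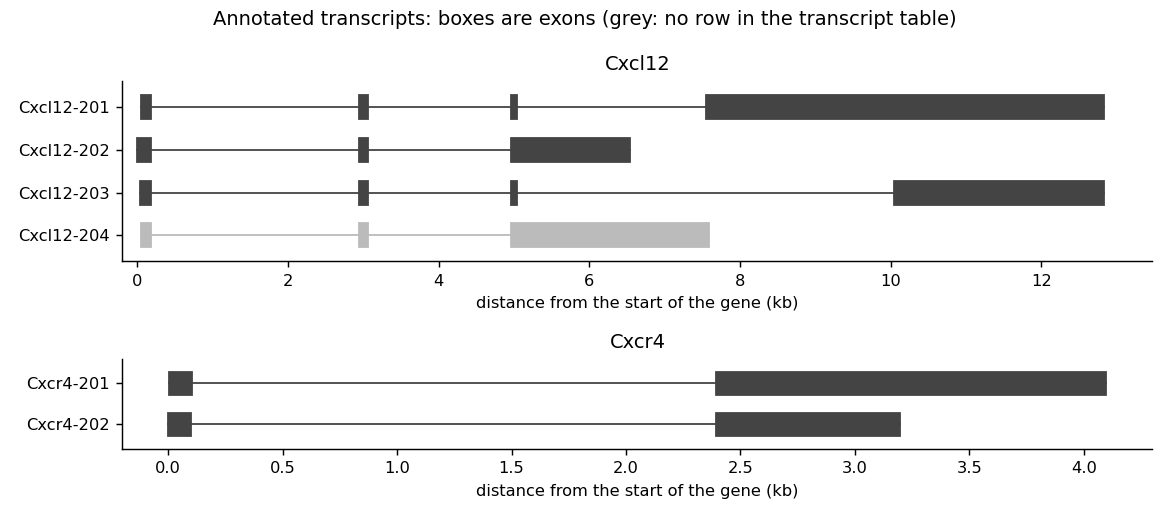
Exons (boxes) of the annotated transcripts of Cxcl12 and Cxcr4 against the distance from the start of the gene in kb. The 3 coding Cxcl12 transcripts share exons 1 to 3 up to a splice donor in exon 3, and Cxcl12-204, a transcript with a retained intron, has no row in the transcript table.

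Levels are FPKM, fragments scaled to transcript length and library size. The files hold no read numbers and their low values do not step in whole reads, so the depth of each library is unknown and precision rests on the replicates. The FPKM of a library summed to 326762 to 405457 in DM-HFD cells and 315152 to 344908 in control cells, and mitochondrially encoded mRNAs took 26.5% to 52.2% of it in DM-HFD cells against 33.1% to 40.0% in control cells. All 10 cardiomyocyte markers were measured, with summed FPKM of 3509 to 6471 in DM-HFD cells and 5222 to 6146 in control cells. Markers of other cells were present too, namely 14 of 14 endothelial, 10 of 10 pericyte and smooth muscle, 10 of 10 fibroblast and 10 of 12 macrophage and leukocyte genes, whereas 0 of 8 B and T cell markers had a row. DM-HFD linagliptin replicate 2 stood apart, with the lowest cardiomyocyte sum, 3509 FPKM against 6329 and 6471 in the other libraries of its group, and a red cell marker sum of 436.9 FPKM against 6.92 and 23.4. Its endothelial sum was 246.8 FPKM against 65.8 and 112.9, and its fibroblast sum 92.9 FPKM against 14.4 and 26.8. DM-HFD vehicle replicates 1 and 3 also had low cardiomyocyte sums, 4150 and 4412 FPKM, against 5812 FPKM in replicate 2. In these bulk libraries fewer cells of a type and less RNA per cell cannot be told apart.

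Cxcl12 was 3.54, 15.2 and 4.66 FPKM in DM-HFD cells with linagliptin and 8.65, 3.80 and 7.47 FPKM in DM-HFD cells with vehicle. In control cells it was 16.1, 20.7, 11.0, 19.1 and 19.1 FPKM with linagliptin and 13.3, 17.1, 14.2, 14.9 and 12.1 FPKM with vehicle. With vehicle the DM-HFD libraries lay below every control library, and with linagliptin DM-HFD replicate 2 lay within the control range while the other 2 lay below it. The mean was 7.81 ± 6.45 FPKM (SD, n = 3) in DM-HFD cells with linagliptin, 6.64 ± 2.53 (SD, n = 3) in DM-HFD cells with vehicle, 17.2 ± 3.84 (SD, n = 5) in control cells with linagliptin and 14.3 ± 1.87 (SD, n = 5) in control cells with vehicle. Ranked by mean, DM-HFD cells with vehicle were lowest, then DM-HFD cells with linagliptin, control cells with vehicle and control cells with linagliptin, and each neighbouring pair in this order overlapped. Without replicate 2 the mean of DM-HFD cells with linagliptin was 4.10 ± 0.79 FPKM (SD, n = 2).

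Cxcr4 was 3.15, 7.56 and 5.12 FPKM in DM-HFD cells with linagliptin and 7.99, 2.72 and 9.02 FPKM in DM-HFD cells with vehicle. In control cells it was 10.2, 11.8, 8.13, 11.1 and 12.9 FPKM with linagliptin and 8.36, 11.5, 11.4, 7.09 and 10.6 FPKM with vehicle. With linagliptin every DM-HFD library lay below every control library, and with vehicle replicates 1 and 3 of DM-HFD cells lay within the control range. The mean was 5.28 ± 2.21 FPKM (SD, n = 3) in DM-HFD cells with linagliptin, 6.58 ± 3.38 (SD, n = 3) in DM-HFD cells with vehicle, 10.8 ± 1.81 (SD, n = 5) in control cells with linagliptin and 9.79 ± 1.97 (SD, n = 5) in control cells with vehicle. Here DM-HFD cells with linagliptin ranked lowest, below DM-HFD cells with vehicle, control cells with vehicle and control cells with linagliptin, and neighbours overlapped too. In DM-HFD vehicle replicate 2, Cxcl12 and Cxcr4 were both at the lowest value of their group.

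**Figure D2:**
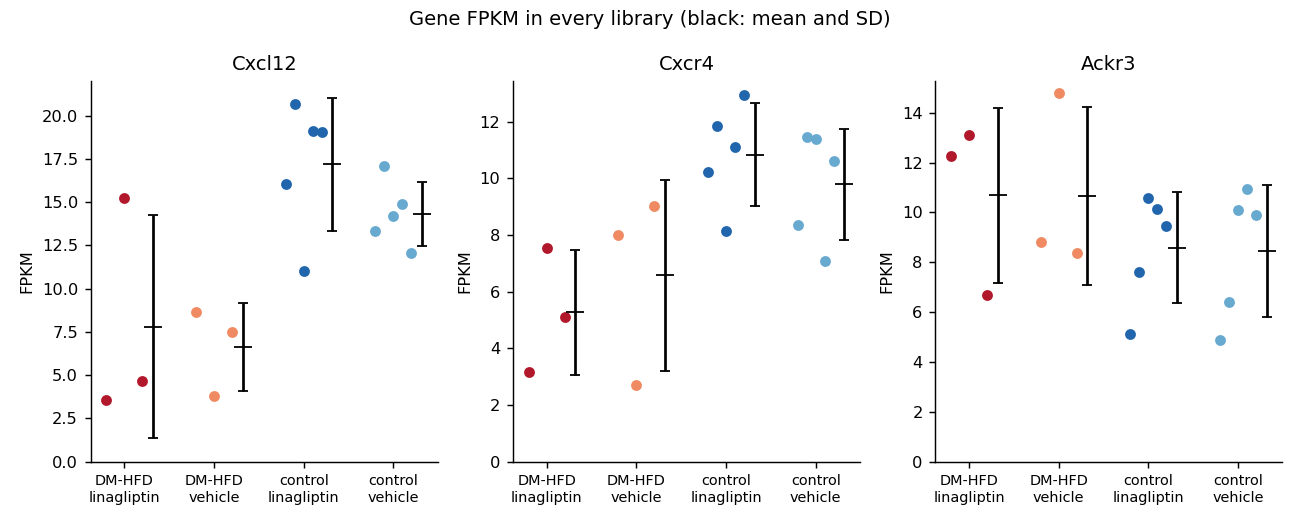
FPKM of Cxcl12, Cxcr4 and the decoy receptor Ackr3 in each library (points, in replicate order within a group) with the group mean and SD in black. Cxcl12 lay below every control library with vehicle in all DM-HFD libraries with vehicle, Cxcr4 lay below every control library with linagliptin in all DM-HFD libraries with linagliptin, and Ackr3 overlapped between all groups.

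Cxcl12 exceeded 65.3% of the 11631 genes in DM-HFD cells with linagliptin, 64.2% in DM-HFD cells with vehicle, 81.1% in control cells with linagliptin and 77.8% in control cells with vehicle. Of 21 chemokines with a row, it was in place 7 in both groups of DM-HFD cells and in place 3 in both groups of control cells, where Cxcl1, a neutrophil attractant, and Ccl2, a monocyte attractant, were higher. Of 6 chemokine receptors with a row, Cxcr4 was in place 2 after Ackr3 in DM-HFD cells and in place 1 in control cells. Dpp4, the peptidase itself, was not analysed here.

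The comparison of linagliptin with vehicle asks whether the inhibitor alters the mRNA of a DPP-4 substrate or of its receptor in the cells. In control cells the log2 fold change of Cxcl12 was 0.23 (standard error 0.15, 95% interval -0.11 to 0.56, limma adjusted p = 0.997). That of Cxcr4 was 0.14 (standard error 0.15, 95% interval -0.18 to 0.46, limma adjusted p = 0.997). In DM-HFD cells the log2 fold change of Cxcl12 was 0.03 (standard error 0.48, 95% interval -1.07 to 1.13, limma adjusted p = 1.00), and that of Cxcr4 was -0.21 (standard error 0.42, 95% interval -1.16 to 0.74, limma adjusted p = 1.00). The intervals in DM-HFD cells thus reached from a fold of 0.48 to 2.19 for Cxcl12 and from 0.45 to 1.67 for Cxcr4. In both kinds of cells the groups overlapped for both genes.

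Over all genes, limma called 0 genes at an adjusted p of 0.05 in either comparison, 0.0% of 11365 in control cells and 0.0% of 11127 in DM-HFD cells, and 455 and 129 had an unadjusted p under 0.05. The study itself used a fold of 1.5 or more together with an unadjusted p up to 0.05, and by that rule the calls were 0.22% of genes in control cells and 0.656% in DM-HFD cells, and neither member was among them. The response to linagliptin did not differ detectably between DM-HFD and control cells, with a difference in log2 fold change of -0.20 for Cxcl12 (standard error 0.47, limma adjusted p = 0.972) and -0.35 for Cxcr4 (standard error 0.41, limma adjusted p = 0.935). That limma test called 0.0% of genes, 0 of 11631, and 532 had an unadjusted p under 0.05. Leaving out DM-HFD linagliptin replicate 2, the log2 fold change of Cxcl12 with linagliptin in DM-HFD cells was -0.53 (limma adjusted p = 0.963), the opposite sign, and without DM-HFD vehicle replicate 2 it was -0.27 (limma adjusted p = 1.00). For Cxcr4 the sign turned in the absence of the library DM-HFD linagliptin replicate 1, and likewise of DM-HFD vehicle replicate 3, with a value of 0.06 each. Of the pathway genes described below, those with the lowest p under linagliptin were Arrb1, which uncouples CXCR4 from G proteins (-0.55), and the chemokine Cxcl5 (0.26) in control cells, and the heparan sulphate enzyme Extl3 (0.48) and Epas1 (0.35) in DM-HFD cells, all at adjusted p of 0.997 or more from limma.

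Cxcl12 fell in DM-HFD cells. With vehicle its mean was 46.4% of the control mean, and its log2 fold change was -1.06 (standard error 0.21, 95% interval -1.53 to -0.59, limma adjusted p = 0.00421). At an adjusted p of 0.05, 28.3% of 11359 genes were lower in DM-HFD cells with vehicle, so a call in this direction was common. The fold and p thresholds of the study, which Cxcl12 also passed, held for 18.2% of genes in this direction. In 30.0% of genes, Cxcl12 among them, every DM-HFD library with vehicle lay below every control library. All genes together had a median of -0.20 on the log2 scale, with 331 genes higher and 3220 lower at an adjusted p of 0.05. Median-of-ratios scaling moved that median to 0.01 and the split to 1527 higher and 1779 lower, and TPM moved the median to -0.47. Cxcl12 was called under both, at -0.80 (limma adjusted p = 0.0230) and -1.38 (limma adjusted p = 0.000703).

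With linagliptin the mean of Cxcl12 in DM-HFD cells was 45.5% of the control mean, and its log2 fold change was -1.25 (standard error 0.37, 95% interval -2.09 to -0.42, limma adjusted p = 0.0352). Here 21.9% of 11555 genes were lower in DM-HFD cells at an adjusted p of 0.05, and 17.9% at the thresholds of the study, Cxcl12 among both. The split over all genes was 540 higher and 2529 lower, and 1491 higher and 1965 lower under median-of-ratios scaling. Without DM-HFD linagliptin replicate 2, the library that stood apart, the log2 fold change was -1.81 (limma adjusted p = 0.00577). The call was lost without DM-HFD linagliptin replicate 1 (-0.89, limma adjusted p = 0.0749) or replicate 3 (-1.05, limma adjusted p = 0.159). It was also lost without control linagliptin replicate 1, 2, 4 or 5, with log2 fold changes from -1.27 to -1.18 and adjusted p from 0.0673 to 0.0785 from limma.

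Cxcr4 fell in DM-HFD cells with linagliptin, and with vehicle it passed the test in TPM but not in FPKM. With linagliptin its mean was 48.7% of the control mean, and its log2 fold change was -0.96 (standard error 0.23, 95% interval -1.47 to -0.45, limma adjusted p = 0.0163). Every DM-HFD library with linagliptin lay below every control library in 21.8% of genes, Cxcr4 among them. Without DM-HFD linagliptin replicate 2 the log2 fold change was -1.22 (limma adjusted p = 0.0115), and without replicate 3 it was -0.98 and not called (limma adjusted p = 0.0770). With vehicle the mean was 67.2% of the control mean, and the log2 fold change was -0.61 (standard error 0.30, 95% interval -1.27 to 0.05, limma adjusted p = 0.143). In TPM it was -0.93 with vehicle (limma adjusted p = 0.0326). Without DM-HFD vehicle replicate 2, whose Cxcr4 was 2.72 FPKM, the value was -0.16. Whether the difference between DM-HFD and control cells was itself larger with linagliptin is the test of the response given above, which did not pass.

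For both genes the calls ended with the model of Ballgown. It adds as a term the sum of each library's log2(FPKM + 1) values, taken over nonzero genes below the upper quartile. The log2 fold change of Cxcl12 was then -0.18 with vehicle and 0.68 with linagliptin, and that of Cxcr4 was 0.45 and 0.02. The median FPKM of a library was 3.66 to 4.42 in DM-HFD cells and 4.66 to 5.16 in control cells. How far the term can be told apart from the group was not tested. The calls also ended when the trends of fold change with transcript length and GC content were removed. Cxcl12 was then at -0.74 with vehicle (limma adjusted p = 0.0708) and -1.09 with linagliptin (limma adjusted p = 0.0986), and Cxcr4 at -0.74 with linagliptin (limma adjusted p = 0.0753). The split over all genes was then 639 higher and 621 lower with vehicle and 349 higher and 350 lower with linagliptin. Genes do not replicate one another, but across them the Spearman correlation of the log2 fold change with length was -0.49 with vehicle and -0.43 with linagliptin, and with GC content 0.49 and 0.66.

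**Figure D3:**
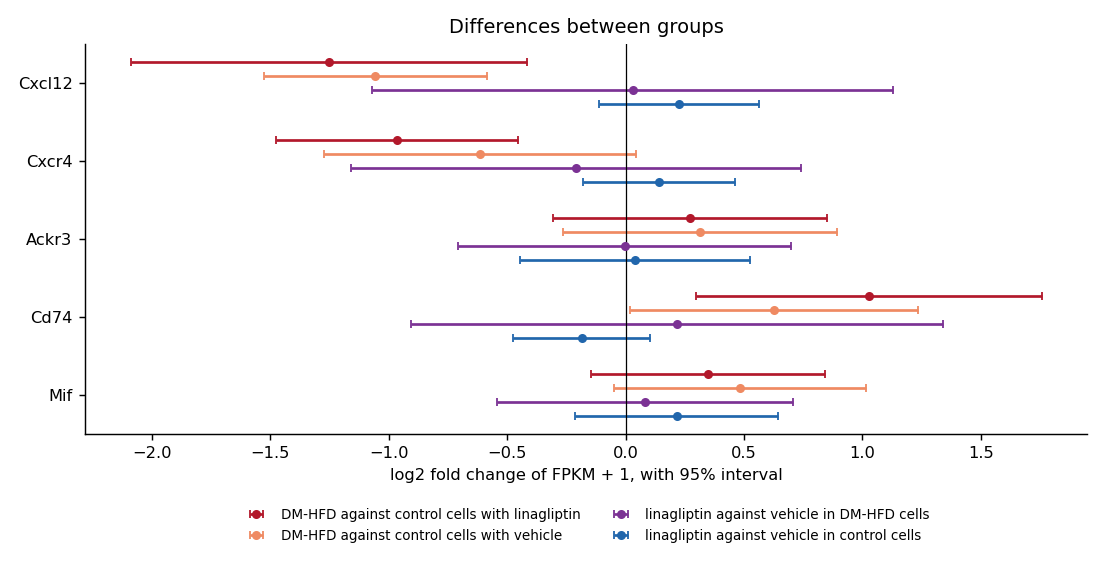
Log2 fold changes of FPKM + 1 (points) with 95% intervals from limma for 5 genes in the 4 comparisons, DM-HFD against control cells above and linagliptin against vehicle below within each gene. Cxcl12 was at -1.25 and -1.06 and Cxcr4 at -0.96 and -0.61 in DM-HFD cells, whereas Ackr3 was at 0.27 and 0.31.

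The transcripts of Cxcl12 gave different pictures. The gene row is the sum of transcript FPKM times transcript length over the length of all exons merged, 8176 bases, and the 3 coding transcripts made up 95.3% to 99.4% of it, so that the gene row follows the long Cxcl12-201 of 5627 bases more than the short Cxcl12-202 of 1878 bases. Cxcl12-201, the gamma transcript, was 4.07, 10.2 and 3.88 FPKM in DM-HFD cells with linagliptin and 8.45, 4.99 and 9.43 FPKM in DM-HFD cells with vehicle. In control cells it was 17.4, 28.3, 14.1, 26.4 and 26.3 FPKM with linagliptin and 15.7, 19.0, 18.1, 17.0 and 14.8 FPKM with vehicle. All DM-HFD libraries thus lay below all control libraries for this transcript, including DM-HFD linagliptin replicate 2. The share of all transcript rows that separate in this way is not given here. Among genes, every DM-HFD library lay below every control library in 30.0% with vehicle and 21.8% with linagliptin, so such a separation was common. In a limma fit over all transcript rows the log2 fold change of Cxcl12-201 was -1.09 with vehicle (standard error 0.20, adjusted p = 0.0181) and -1.80 with linagliptin (standard error 0.34, adjusted p = 0.0525). That fit called 6.91% of 21197 transcripts with vehicle and 0.773% of 21858 with linagliptin, in either direction.

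Cxcl12-202, the alpha transcript, was either clearly measured or nearly 0. It was 2.47, 29.9 and 5.96 FPKM in DM-HFD cells with linagliptin and 11.8, 0.0423 and 0.0352 FPKM in DM-HFD cells with vehicle. In control cells it was 9.31, 0.00677, 0.0155, 0.146 and 0.0207 FPKM with linagliptin and 7.98, 9.85, 0.0352, 7.76 and 0.0270 FPKM with vehicle. In 8 libraries it was at least 2.47 FPKM and in the other 8 at most 0.146 FPKM, and high and low libraries stood side by side within 3 of the 4 groups. All 3 DM-HFD libraries with linagliptin were among the high ones, against 1 of 5 control libraries with linagliptin. Its log2 fold change between them was 2.46 (standard error 0.94, adjusted p = 0.157 from limma over all transcripts). These transcripts share exons 1 to 3, and how reads were divided among them was not tested.

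Cxcl12-203, the beta transcript, was 0.204, 3.28 and 1.47 FPKM in DM-HFD cells with linagliptin and 0.152, 0.464 and 1.63 FPKM in DM-HFD cells with vehicle. In control cells it was 3.65, 0.736, 2.23, 1.11 and 0.499 FPKM with linagliptin and 1.22, 3.62, 3.45, 2.94 and 3.96 FPKM with vehicle. With vehicle DM-HFD replicate 3 alone overlapped the control range, and the log2 fold change was -1.24 (standard error 0.35, adjusted p = 0.0753 from limma over all transcripts).

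As a share of the summed Cxcl12 FPKM, Cxcl12-202 averaged 52.7% in DM-HFD cells with linagliptin, 19.6% in DM-HFD cells with vehicle, 6.28% in control cells with linagliptin and 18.1% in control cells with vehicle. Between DM-HFD and control cells with linagliptin the exact two-sided permutation test gave p = 0.0357, the smallest that 3 against 5 libraries allow, and an adjusted p of 0.508 over 16 transcript shares and comparisons. Cxcl12-201 averaged 39.4% in DM-HFD cells with linagliptin and 86.9% in control cells with linagliptin (exact permutation p = 0.0714, adjusted p = 0.508). No share passed the adjustment. Summed over its coding transcripts without weighting by length, Cxcl12 was 20.5 ± 19.96 FPKM (SD, n = 3) in DM-HFD cells with linagliptin and 26.0 ± 5.60 (SD, n = 5) in control cells with linagliptin, and the difference of -0.71 on the log2 scale was not called (adjusted p = 0.285, limma). With vehicle the same sum was 12.3 ± 7.54 FPKM (SD, n = 3) in DM-HFD cells and 25.1 ± 5.34 (SD, n = 5) in control cells.

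**Figure D4:**
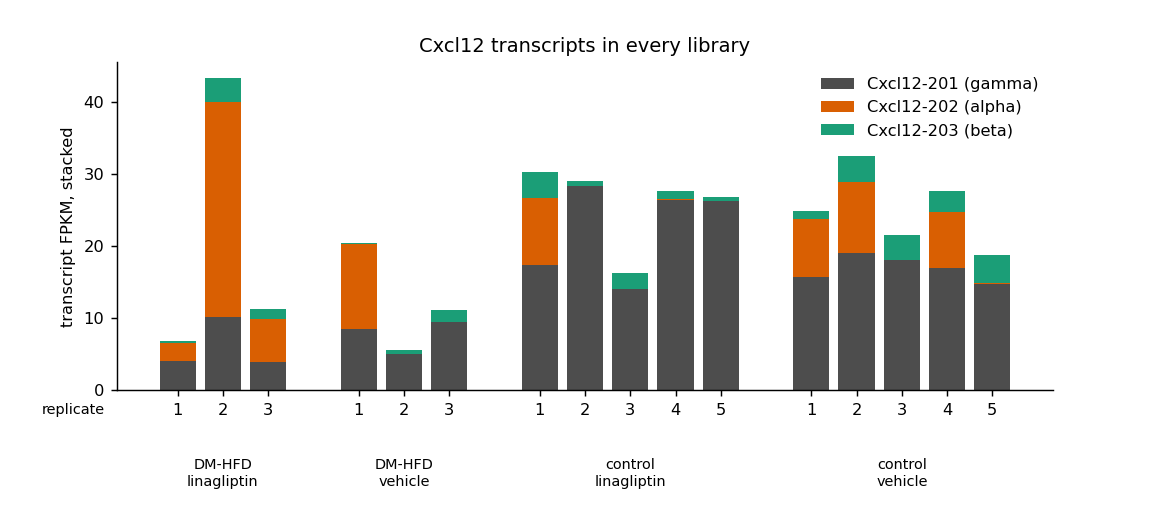
FPKM of the 3 coding Cxcl12 transcripts stacked for each library, numbered by replicate within its group. Cxcl12-202 (alpha) reached 29.9 FPKM in DM-HFD linagliptin replicate 2, was at least 2.47 FPKM in 8 libraries and was at most 0.146 FPKM in the other 8, whereas Cxcl12-201 (gamma) was at most 10.2 FPKM in DM-HFD libraries and at least 14.1 FPKM in control libraries. Among genes, DM-HFD libraries all lay below control libraries in 30.0% with vehicle and 21.8% with linagliptin.

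Cxcr4 was carried mostly by Cxcr4-201, and its 2 transcripts account for the whole gene row. Cxcr4-201 was 2.82, 6.90 and 5.13 FPKM in DM-HFD cells with linagliptin and 7.43, 2.72 and 9.03 FPKM in DM-HFD cells with vehicle. In control cells it was 7.38 to 12.4 FPKM with linagliptin, with a median of 10.4, and 6.30 to 11.3 FPKM with vehicle, with a median of 9.55. Cxcr4-202 took 0% to 19.7% of the summed FPKM in DM-HFD libraries with linagliptin and 7.88% to 21.3% in control libraries with linagliptin. Its share was 0% to 13.4% in DM-HFD libraries with vehicle and 0% to 20.1% in control libraries with vehicle, and it was listed at 0 in 1 DM-HFD library with linagliptin, 2 DM-HFD libraries with vehicle and 1 control library with vehicle. In none of the 4 comparisons did the share pass the exact permutation test, with adjusted p of 0.635 to 0.939.

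Ackr3, the receptor that takes CXCL12 up without G protein signalling, did not pass the test in any comparison. It was 12.3, 13.1 and 6.67 FPKM in DM-HFD cells with linagliptin and 8.80, 14.8 and 8.38 FPKM in DM-HFD cells with vehicle, against 5.14 to 10.6 FPKM in control cells with linagliptin and 4.86 to 10.9 FPKM with vehicle. Its log2 fold change between DM-HFD and control cells was 0.31 with vehicle (standard error 0.26, limma adjusted p = 0.387) and 0.27 with linagliptin (standard error 0.26, limma adjusted p = 0.444).

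The other ligand and partner genes were mixed. Here and in the lists below, rises and falls with vehicle or with linagliptin compare DM-HFD with control cells. They are not responses to linagliptin. Mif, a cytokine that can also bind CXCR4, was the most abundant of them, at 125.5 to 225.2 FPKM in DM-HFD cells with linagliptin and 99.5 to 173.3 FPKM in control cells with linagliptin. Its log2 fold change was 0.35 (limma adjusted p = 0.252) with linagliptin and 0.48 (limma adjusted p = 0.152) with vehicle. Cd74, the invariant chain and surface receptor of MIF, rose in DM-HFD cells with linagliptin, at 7.30, 15.7 and 26.9 FPKM against 5.05 to 8.08 FPKM in control cells with linagliptin, with DM-HFD replicate 1 within the control range and a log2 fold change of 1.03 (standard error 0.33, limma adjusted p = 0.0429). Of the 8 fits that each left out 1 library, 1 called Cd74. With vehicle it was 16.5, 6.47 and 17.8 FPKM in DM-HFD cells against 6.67 to 9.51 FPKM in control cells (log2 fold change 0.63, limma adjusted p = 0.108). Hmgb1, an alarmin that forms a complex with CXCL12, fell with linagliptin, though not without DM-HFD linagliptin replicate 3, at 20.2 ± 6.62 FPKM (SD, n = 3) in DM-HFD cells against 35.0 ± 2.81 (SD, n = 5) in control cells. Cxcl14, a chemokine that binds CXCR4, rose with vehicle at 1.12 ± 0.55 FPKM (SD, n = 3) in DM-HFD cells against 0.28 ± 0.07 (SD, n = 5) in control cells. These are low values too, and Cxcl14 passed the filter of 0.5 FPKM only through DM-HFD cells. Cd74 is made by macrophages and other antigen-presenting cells, and the summed macrophage and leukocyte markers were 65.9, 265.5 and 162.7 FPKM in DM-HFD libraries with linagliptin against 58.8 to 73.9 FPKM in control libraries with linagliptin; the part of this in the Cd74 value was not tested.

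The list counts depended on single libraries. With linagliptin the calls over all genes were 101 lower and 5 higher without DM-HFD linagliptin replicate 3, and 3439 lower and 2357 higher without replicate 1. In the pathway and marker lists that follow, the genes still called with linagliptin in each of the 8 fits were Jak2, Rgs5, Fabp4 and Postn.

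Of 12 peptidases able to trim CXCL12, 6 had a row. Dpp8, an intracellular relative of DPP-4, fell in DM-HFD cells with vehicle (3.72 ± 0.68 FPKM, SD, n = 3, against 6.84 ± 1.31, SD, n = 5, in control cells) and with linagliptin (log2 fold change -0.78, limma adjusted p = 0.0154). Cpm, a carboxypeptidase that removes the C-terminal lysine of CXCL12 alpha, fell with linagliptin at 0.19 ± 0.06 FPKM (SD, n = 3) in DM-HFD cells against 0.57 ± 0.09 (SD, n = 5) in control cells. These are low values, and Cpm passed the filter of 0.5 FPKM only through control cells. Of 11 enzymes that build or modify the heparan sulphate to which CXCL12 binds, 1 fell with vehicle, the sulphotransferase Hs2st1 (log2 fold change -0.33), and 1 with linagliptin, the epimerase Glce (log2 fold change -0.60). Among all genes 28.3% were lower with vehicle and 21.9% with linagliptin, so the list was called less often than genes at large. Hs2st1 was called in 1 and Glce in 4 of the 8 fits that each left out 1 library, and 0 genes of the list were called lower without DM-HFD vehicle replicate 1, 2 or 3 or without DM-HFD linagliptin replicate 2 or 3.

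Downstream of the receptor, 10 of 30 G proteins and effectors fell and Pik3r5, a regulatory subunit of phosphoinositide 3-kinase, rose in DM-HFD cells with vehicle, where 28.3% of all genes were lower and 2.91% higher. The list median was -0.21 on the log2 scale, close to the -0.20 of all genes, and Pik3r5 was not called without DM-HFD vehicle replicate 1 or 3. Jak2, a kinase reported to associate with CXCR4, had a log2 fold change of -1.02 with vehicle (limma adjusted p = 0.0011) and -1.37 with linagliptin (limma adjusted p = 0.00419). Gnai3 and Gnai1, inhibitory G protein alpha subunits, were at -0.77 and -0.66 with vehicle and at -1.12 and -0.74 with linagliptin, and Plcb4, a phospholipase C, at -0.83 with vehicle. With linagliptin 8 of 30 fell, 21.9% of all genes being lower, and Ptk2b, a calcium-dependent tyrosine kinase, and the kinase Akt1 rose, at 0.60 and 0.58. Without DM-HFD linagliptin replicate 2 these counts were 9 lower and 0 higher of 29, and without replicate 3 they were 1 lower and 0 higher of 30.

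Of 19 genes that desensitise, ubiquitinate or sort CXCR4, 6 fell in DM-HFD cells with vehicle and 5 with linagliptin, near the 28.3% and 21.9% of all genes that were lower. Itch, the ligase that marks activated CXCR4 for lysosomes, had a log2 fold change of -0.66 with vehicle and -0.84 with linagliptin. Usp8, a deubiquitinase, was at -0.76 and -0.68, Vps4b, an ATPase of the sorting machinery, at -0.79 and -0.80, and Stam at -0.52 and -0.58. Rnf113a2 also fell with vehicle and was called in 2 of the 8 fits that each left out 1 library. Hgs, the partner of STAM on endosomes, rose with linagliptin at 0.73 (limma adjusted p = 0.0323). Rgs5, which shortens G protein signals, had the largest value of the list, -1.88 with vehicle and -2.19 with linagliptin, and is itself a pericyte marker. Without DM-HFD linagliptin replicate 2 the counts with linagliptin were 3 lower and 0 higher of 19, and without replicate 3 they were 1 lower, Rgs5, and 0 higher.

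Among transcription factors reported to bear on Cxcl12 or Cxcr4, 5 of 10 fell with vehicle (3 to 4 of 10 without each library) and 3 of 11 with linagliptin (0 without DM-HFD linagliptin replicate 3). Hif1a, the oxygen-regulated factor known to raise both genes in hypoxia, was 13.5 ± 3.08 FPKM (SD, n = 3) in DM-HFD cells with vehicle and 26.8 ± 4.01 (SD, n = 5) in control cells with vehicle, lower by limma (-0.95 on the log2 scale, adjusted p = 0.00206), and was at -1.23 with linagliptin. Epas1, its endothelial relative, was at -0.83 and Yy1 at -0.54 with vehicle, and Ebf1 was at -0.34 with vehicle and -0.54 with linagliptin. Tbx18 also fell with vehicle but was called in 0 of the 8 fits that each left out 1 library. Ebf3 fell with linagliptin and was called in 1 of the 6 such fits that tested it. Without both members, these pathway lists together had 23 of 81 genes lower and 2 higher with vehicle, 28.3% of all genes being lower, and 20 of 83 lower and 4 higher with linagliptin, against 21.9%. Without DM-HFD linagliptin replicate 2 the count with linagliptin was 18 lower and 0 higher of 80, without replicate 3 it was 2 lower and 0 higher of 83, and without replicate 1 it was 24 lower and 19 higher of 83. Leaving out each library in turn gave 17 to 21 lower and 1 to 6 higher with vehicle. The lists were counted on FPKM alone, not under the other scalings.

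Of the other chemokine rows, 1 rose and 1 fell with vehicle, where 2.91% of all genes were higher and 28.3% lower. With linagliptin 0 rose and 2 fell, where 4.67% of all genes were higher and 21.9% lower. The list median with vehicle, 0.35, stood against -0.20 over all genes. Of 18 rows tested with vehicle, in which Ccl21a stands for 2 near-identical genes, Ccl21a, a ligand of CCR7, rose in 1 of its 2 rows (2.03 ± 0.76 FPKM, SD, n = 3, in DM-HFD cells against 0.86 ± 0.38, SD, n = 5, in control cells, a division between copies that is uncertain) and Cxcl2, a neutrophil attractant, fell at -0.54, with a median of 0.35 over the list. Without DM-HFD vehicle replicate 2 the count was 11 higher and 0 lower of 19, and without replicate 3 it was 0 of 19, while without replicate 1 Ccl21a was not called. With linagliptin Cxcl9, a CXCR3 ligand, was at -1.16 and Cxcl2 at -0.55, and 0 of 20 rows rose. The mean of Cxcl9 in DM-HFD cells with linagliptin was 0.46 FPKM, so it passed the filter of 0.5 FPKM only through control cells. Neither Cxcl9 nor Cxcl2 was called without DM-HFD linagliptin replicate 3, and without replicate 1 the count was 7 higher and 1 lower. Among 3 other chemokine receptors tested with vehicle, 2 rose, Ccr7 and Cxcr6, found on T cells and other leukocytes, at 0.72 and 0.64. Their means in control cells with vehicle were 0.09 and 0.45 FPKM, so both passed the filter of 0.5 FPKM only through DM-HFD cells. The count of 2 of 3 is thus shaped by the filter and is not a result about chemokine receptors. Ccr7 was not called without DM-HFD vehicle replicate 3, nor Cxcr6 without replicate 1. Cxcr6 was also called with linagliptin, at 0.42, in 3 of the 8 fits without 1 library and in the fit with all. Its mean in control cells with linagliptin was 0.40 FPKM, so there too it passed the filter only through DM-HFD cells.

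By genes called with vehicle, endothelial, pericyte and smooth muscle, and cardiomyocyte markers leaned lower in DM-HFD cells and macrophage and leukocyte markers higher. With linagliptin the endothelial count of 4 of 14 was near the 21.9% of all genes. The pericyte and smooth muscle sum then averaged higher in DM-HFD cells, 107.3 ± 43.5 FPKM (SD, n = 3) against 91.7 ± 12.9 (SD, n = 5). That higher mean rested on DM-HFD linagliptin replicate 2, the library that stood apart, at 152.6 FPKM. Replicates 1 and 3 were at 66.0 and 103.3 FPKM, against 74.9 to 109.6 FPKM in control cells with linagliptin. Of 14 endothelial markers, 8 fell and 0 rose in DM-HFD cells with vehicle, with a median of -0.53, and 4 fell and 0 rose with linagliptin, with a median of -0.77, where 28.3% and 21.9% of all genes were lower. With vehicle the count was 3 without DM-HFD vehicle replicate 2 or control vehicle replicate 3 and 5 to 7 without each other library, and with linagliptin it was 10 without DM-HFD linagliptin replicate 2, 1 without replicate 3 and 2 to 5 without each other library. Kdr, a VEGF receptor, was at -1.19 with vehicle and -1.41 with linagliptin, and Fabp4, a capillary fatty acid carrier, at -1.15 and -1.80. The summed endothelial FPKM was 65.8 to 246.8 in DM-HFD cells with linagliptin, 90.8 to 155.1 in DM-HFD cells with vehicle, 167.7 to 280.3 in control cells with linagliptin and 175.2 to 219.5 in control cells with vehicle, and no marker of the list was at 0 in any library. Of 10 pericyte and smooth muscle markers, 6 fell with vehicle, and 4 fell and 1, Acta2, rose with linagliptin (6 lower and 0 higher without DM-HFD linagliptin replicate 2, 1 lower and 0 higher without replicate 3). Their sum was 66.0 to 152.6 FPKM in DM-HFD cells with linagliptin, 41.0 to 94.4 in DM-HFD cells with vehicle, 74.9 to 109.6 in control cells with linagliptin and 75.1 to 98.1 in control cells with vehicle, again with no marker at 0. Of 10 cardiomyocyte markers 5 fell with vehicle (3 to 7 without each library) and 3 with linagliptin (0 to 5), and of 10 fibroblast markers 1, Postn, fell in each, with list medians of 0.09 and 0.14. Of 10 macrophage and leukocyte markers 4 rose with vehicle, with a median of 0.66, and 3 of 9 rose with linagliptin, with a median of 0.89, where 2.91% and 4.67% of all genes were higher. With vehicle the count was 2 of 9 without DM-HFD vehicle replicate 1 or 3 and 8 of 10 without replicate 2. With linagliptin it was 9 of 10 without DM-HFD linagliptin replicate 1, 1 of 9 without replicate 2 and 0 of 10 without replicate 3. Beyond the ratios and relations that follow, the part of these cells in the values of Cxcl12 and Cxcr4 was not tested.

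Set against the summed endothelial markers of the same library, Cxcl12 was 0.041 to 0.062 in DM-HFD cells with linagliptin, 0.042 to 0.056 in DM-HFD cells with vehicle, 0.066 to 0.088 in control cells with linagliptin and 0.055 to 0.080 in control cells with vehicle. The log2 ratio differed by -0.54 between DM-HFD and control cells with vehicle (exact two-sided permutation p = 0.0714, adjusted p = 0.286 over 20 ratio tests) and by -0.53 with linagliptin (exact permutation p = 0.0357, adjusted p = 0.179). Cxcl12 itself was at -1.06 and -1.25 on the log2(FPKM + 1) scale, and the difference between the ratio and the gene was not tested. For Cxcr4 the ratio differed by -0.08 with vehicle (exact permutation p = 0.714, adjusted p = 0.794) and by -0.23 with linagliptin (exact permutation p = 0.286, adjusted p = 0.519). Against the summed pericyte and smooth muscle markers, the log2 ratio of Cxcl12 differed by -0.85 with vehicle and -1.57 with linagliptin, each at exact permutation p = 0.0357 and an adjusted p of 0.179. That of Cxcr4 differed by -0.39 with vehicle (exact permutation p = 0.179, adjusted p = 0.446) and by -1.27 with linagliptin (exact permutation p = 0.0357, adjusted p = 0.179), at ratios of 0.048 to 0.050 in DM-HFD cells with linagliptin and 0.095 to 0.138 in control cells with linagliptin. The share of all genes whose ratio to this sum separates in this way was not counted. In FPKM itself, 21.8% of genes separated in this comparison. A p of 0.0357 is the smallest that 3 against 5 libraries allow in the exact permutation test. These ratios were chosen after the data were seen.

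Cxcl12 followed the endothelial sum by Pearson's r in both kinds of cells, and Cxcr4 did in control cells. Over the 10 control libraries, Pearson's r of Cxcl12 with it was 0.78 (permutation p = 0.00909, adjusted p = 0.0400) and Spearman's rho 0.79 (permutation p = 0.0087, adjusted p = 0.0638), and r was 0.64 without the 2 libraries farthest from the median endothelial sum. For Cxcr4, r was 0.82 (permutation p = 0.00358, adjusted p = 0.0263), rho 0.87 (permutation p = 0.0021, adjusted p = 0.0306), and r without 2 libraries 0.72. Over the 6 DM-HFD libraries, r of Cxcl12 with the endothelial sum was 0.97 (exact permutation p = 0.00139, adjusted p = 0.0263), rho 1.00 (exact permutation p = 0.00278, adjusted p = 0.0306), and r without 2 libraries 0.98. For Cxcr4, r was 0.83 (exact permutation p = 0.0458, adjusted p = 0.0803) and rho 0.71 (exact permutation p = 0.136, adjusted p = 0.187), with 0.98 without 2 libraries. Cxcl12 also followed the fibroblast sum by r. Over DM-HFD libraries r was 0.96 (exact permutation p = 0.00278, adjusted p = 0.0263), rho 0.94 (exact permutation p = 0.0167, adjusted p = 0.0765) and r without 2 libraries 0.97. Over control libraries r was 0.77 (permutation p = 0.012, adjusted p = 0.0440), rho 0.75 (permutation p = 0.0174, adjusted p = 0.0765) and r without 2 libraries 0.78. With the macrophage and leukocyte sum r was 0.88 over DM-HFD libraries (exact permutation p = 0.0153, adjusted p = 0.0480), rho 0.83 (exact permutation p = 0.0583, adjusted p = 0.143) and r without 2 libraries 0.78. With the cardiomyocyte sum r was -0.96 over DM-HFD libraries (exact permutation p = 0.00833, adjusted p = 0.0400), rho -0.83 (exact permutation p = 0.0583, adjusted p = 0.143) and r without 2 libraries -0.99. For Cxcl12 the adjusted p of r over control libraries was 0.820 with the macrophage and leukocyte sum and 0.952 with the cardiomyocyte sum (permutation tests). For Cxcr4, r with the fibroblast sum was 0.89 over DM-HFD and 0.67 over control libraries (permutation tests, adjusted p = 0.0780 each). With the macrophage and leukocyte sum it was 0.83 and -0.68 (permutation tests, adjusted p = 0.0803 and 0.0780). Against the pericyte and smooth muscle sum, r of Cxcl12 was 0.81 and 0.62 (permutation tests, adjusted p = 0.0803 each). That of Cxcr4 was 0.76 and 0.38. None of these passed the adjustment.

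Between Cxcl12 and Cxcr4 themselves, r was 0.81 over the 6 DM-HFD libraries (exact permutation p = 0.0583, adjusted p = 0.0803), with rho 0.71 (exact permutation p = 0.136, adjusted p = 0.187) and r of 0.55 without 2 libraries. Over the 10 control libraries r was 0.62 (permutation p = 0.0584, adjusted p = 0.0803), rho 0.67 (permutation p = 0.0386, adjusted p = 0.121) and r 0.62 without 2 libraries. All p-values were adjusted over 22 relations, and neither of these 2 passed. The labels name no batch in which to recompute them.

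**Figure D5:**
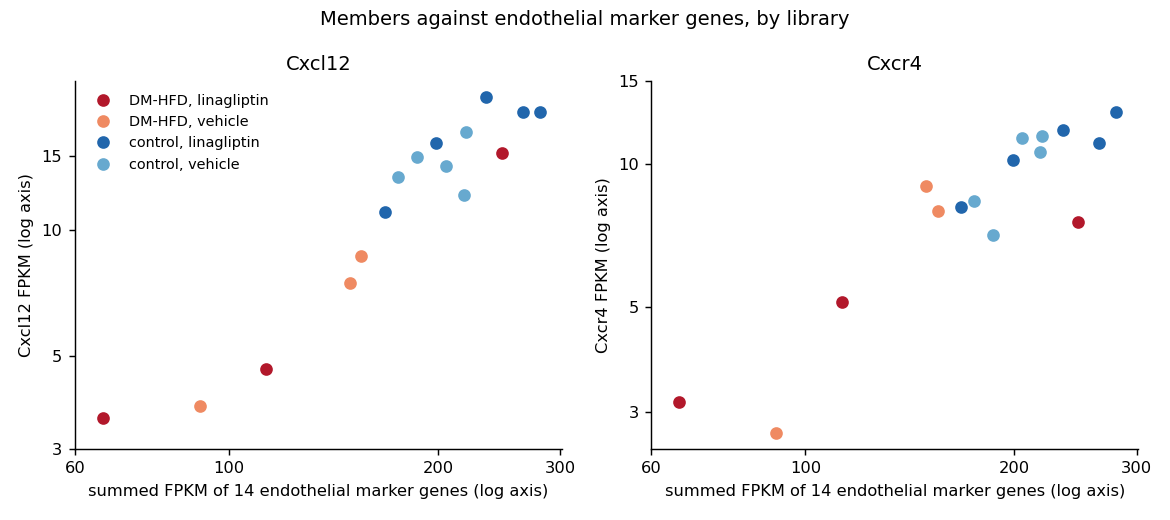
FPKM of Cxcl12 (left) and Cxcr4 (right) against the summed FPKM of 14 endothelial marker genes, both on log axes, 1 point per library. DM-HFD linagliptin replicate 2, at an endothelial sum of 246.8, had 15.2 FPKM of Cxcl12 and 7.56 FPKM of Cxcr4, and the other DM-HFD libraries lay at sums of 65.8 to 155.1.

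As a description over the 16 libraries, which share 4 groups, the genes most like Cxcl12 among 10046 genes were Jcad, an endothelial junction protein (Pearson's r of log2(FPKM + 1) 0.99), Phldb2 (0.98), Fgd5 (0.98), Galnt15 (0.97) and Nid2, a basement membrane protein (0.97). With group means subtracted they were Mcm4, Jcad, Col5a1, Nid1 and Lama4, with r from 0.96 to 0.97. The genes most like Cxcr4 were Apobec3 (0.96), Dpysl3 (0.95), Ly6c1 (0.94), Cd34 (0.94) and Bcl6b (0.94), of which Ly6c1, Cd34 and Bcl6b are known from endothelial cells. With group means subtracted they were Vegfc, H2-Q4, Dpysl3, Marcks and H2-K1, with r from 0.93 to 0.96. Cxcr4 was in place 161 on the list for Cxcl12, at r = 0.89, and Ackr3 had r = -0.31 with Cxcl12 and -0.44 with Cxcr4. Once group means were subtracted, Cxcr4 was in place 751 on the list for Cxcl12 and Cxcl12 in place 485 on that for Cxcr4, at r = 0.78. Ackr3 then had r = -0.06 with Cxcl12 and -0.30 with Cxcr4.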

How the data were processed

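Adult cardiomyocytes from C57BL/6 mice gave 16 poly(A) RNA libraries, prepared with a stranded kit and sequenced as paired-end reads. The authors trimmed reads with cutadapt, checked them with FastQC 0.11.7, aligned them to GRCm38 with HISAT2 2.1.0 and estimated abundance with StringTie 1.3.3 and Ballgown, and deposited FPKM per protein-coding gene and transcript. Every gene in the tables averaged 0.5 FPKM or more in some group. FPKM lack read counts, and an FPKM also depends on what else fills the library.

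Groups were compared with limma 3.58.1 in R 4.3.3 (intensity trend) on log2(FPKM + 1), so fold changes of low genes are understated, over genes averaging 0.5 FPKM or more in either compared group. P-values were adjusted by Benjamini-Hochberg over all genes, and called under 0.05. The same fit was run on all transcript rows, and fits were tested on simulated data. Shares, ratios and relations used exact permutation tests in scipy 1.17.1, or 100000 permutations with 10 libraries. Genes named were both members and Ackr3, Mif and Cd74 in all groups, up to 6 genes per pathway list past the threshold by size (in comparisons with none, the 2 with the lowest p), and the 5 genes most alike in Pearson's r with a mean of at least 1 FPKM. The members and lists were chosen with earlier results of these data known. Alternatives were other pseudocounts, TPM, median-of-ratios scaling, summed transcripts, no filter, no trend, Ballgown's model, a fit on all groups, a replicate block and leaving out each library. The removal of length and GC trends (GENCODE M21 lengths and GC, matched for 99.5% of genes), the ratios and the list counts without each library were added after the data were seen.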

Additional observations from a re-analysis of the deposited data

Results flagged for a closer look

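Chance flags about 1 in 20 groups, and 28 groups of 5 libraries were tested. Cxcl12-202 was 9.31 FPKM in control linagliptin replicate 1, far above the 0.00677 to 0.146 FPKM of the other 4 libraries of that group. Its share of the summed Cxcl12 FPKM was 30.7% there, against 0.0233% to 0.528% in the others, and the share of Cxcl12-201 was 57.3%, against 86.2% to 98.1%. These 3 values come from the same library and the same division among transcripts. Cxcr4-202 was 2.82 FPKM in control linagliptin replicate 2, above the 1.04 to 1.53 FPKM of the other 4 libraries.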

How the results depend on the processing

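In control cells the direction for both genes with linagliptin held under all 11 other settings and without each library. In DM-HFD cells, Cxcl12 with linagliptin was at -0.13 under median-of-ratios scaling, -1.45 under Ballgown's model and -0.17 with length and GC trends removed, and at -0.53 to 0.39 without each library, and Cxcr4 at -0.66 to 0.059 without each library. For DM-HFD against control cells with vehicle, Cxcl12 was not called under Ballgown's model (-0.18) or with length and GC trends removed (-0.74) and was called without each library (-1.26 to -0.75), whereas Cxcr4 was called in TPM (-0.93), had the opposite sign under Ballgown's model (0.45) and was at -0.88 to -0.16 without each library. With linagliptin, Cxcl12 was not called when summed from transcripts (-0.71), under Ballgown's model (0.68) or with trends removed (-1.09), and was at -1.81 to -0.89 without each library, and Cxcr4 was not called under Ballgown's model (0.016) or with trends removed (-0.74), and was at -1.22 to -0.70 without each library. The difference in response was -0.75 to 0.16 for Cxcl12 and -0.80 to -0.08 for Cxcr4 without each library. The trend removal was chosen after seeing the data, and beyond their construction the cause of these changes was not tested.

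Linagliptin and vehicle libraries with the same number had r of -0.16, -0.61 and 0.19 between their deviations from the group means in DM-HFD cells and 0.52, 0.29, 0.40, -0.32 and 0.38 in control cells. Not every pair was positive and no source ties the numbers to shared mice, so the numbers were not taken as pairs. Between DM-HFD and control cells, a replicate block joins libraries of different mice by number alone, which these r do not cover. Control replicates 4 and 5 have no partner in it. With that block, Cxcl12 was at -1.14 (limma adjusted p = 0.105) and Cxcr4 at -0.87 (limma adjusted p = 0.107) in DM-HFD against control cells with linagliptin, where 0 genes were called with the block and 3069 without it, and with vehicle 2088 and 3551. The block has no known meaning here, so no conclusion is drawn from these counts.

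Without each library the difference in share was -5.92 to 18.8 percentage points for Cxcl12-201 and -17.6 to 11.2 for Cxcl12-202 between DM-HFD and control cells with vehicle, -3.67 to 3.28 for Cxcl12-203 with linagliptin against vehicle in DM-HFD cells, and -1.52 to 3.47 for Cxcl12-203 and -5.18 to 4.64 for Cxcr4-202 between DM-HFD and control cells with linagliptin. Ballgown's model called 1 gene in each comparison of DM-HFD with control cells, and with length and GC trends removed 639 genes were called higher and 621 lower with vehicle and 349 higher and 350 lower with linagliptin. In TPM the calls with vehicle were 122 higher and 5321 lower, and without each library the calls with linagliptin were 106 (without DM-HFD linagliptin replicate 3) to 5796 (without replicate 1). The test of the difference in response called 18 genes without DM-HFD linagliptin replicate 1. No read numbers were used, so what depth limits cannot be stated.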
